A study of Sus scrofa with 48 samples.

Results

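Triacylglycerol synthesis, storage and breakdown, and the synthesis of the fatty acids that feed them, were followed in pig whole blood through 10 genes. DGAT1 and DGAT2 encode the enzymes that add the last fatty acid to a diacylglycerol and so complete a triacylglycerol. PLIN2 encodes a coat protein of lipid droplets, PNPLA2 and LIPE the lipases that remove fatty acids from stored triacylglycerol and diacylglycerol, ACACA and FASN the enzymes that build palmitate from acetyl-CoA, SCD the desaturase that makes oleate, CD36 a fatty acid receptor and transporter, and SREBF1 a transcription factor that switches on lipogenic genes. Probes were chosen by name, as the array spots whose gene name is one of these 10 and that belong to the 37113 spots retained by the authors. This gave 33 probes for 8 genes out of 40 spots that carry one of the names. DGAT2 had 3 retained probes, PNPLA2 3, LIPE 4, FASN 4, ACACA 2, SCD 10, CD36 4 and SREBF1 3. No spot carries the name DGAT1, and neither of the 2 PLIN2 spots is among the retained spots.

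Pigs were castrated males of 2 French Large White lines that had been bred apart on residual feed intake (RFI), the part of feed intake that growth and maintenance do not account for, one toward a low and the other toward a high value. Both lines carry the selection of 8 generations, so that there was no unselected group. From each line, 12 pigs received a high-fat, high-fiber (HF) diet and 12 a low-fat, low-fiber (LF) diet. Blood of the 48 pigs was taken at exsanguination at 132 days of age, and each RNA was hybridized to 1 single-color array. The RNA is that of all blood cells together, so that a lower level can stem from fewer cells of a type or from less RNA per cell, and these cannot be told apart.

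Spot values are log2 intensities with the array median at 0, so that a level shows how far a spot lies above or below the median spot of its array. Levels of different probes are not comparable, so groups of pigs were compared within a probe or within a gene value, the mean over the probes of a gene. The label was checked by how far blood cell markers lay above background, read as detection of each gene and not as a ranking of genes. The brightest spots of the hemoglobin chaperone AHSP and of HBB had intensities 8791 and 6080 times the local background (median over pigs), CXCR2 of neutrophils 984 times and CD247 of T cells 726 times. Of 8 adipocyte markers 7 had a retained spot, and their brightest spots ranged from 1.77 (CIDEA) to 32.6 times (RETN, resistin) the local background, with ADIPOQ at 2.35, FABP4 at 2.27, PLIN1 at 4.77, LEP at 7.43 and PCK1 at 8.79 times. No CIDEC spot was retained or called well above background on more than 15 arrays. The median intensity over background of an array ranged from 5.91 to 15.97, no spot was saturated, and each of the 6 slides held 2 arrays of each group.

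DGAT2 was the only one of the 8 measured genes that passed the test between lines after correction. With the mean of its 3 probes as the value of the gene, DGAT2 was underexpressed in low RFI pigs by 0.46 ± 0.11 (SE) on the log2 scale (FC of 1.38, 95% interval of the log2 difference -0.69 to -0.23, limma with Benjamini-Hochberg adjustment over 26924 gene values, adjusted P = 0.014). At that threshold 2.73% of all gene values were called. The gene value averaged 0.55 ± 0.48 in low RFI HF pigs, 0.50 ± 0.30 in low RFI LF pigs, 1.19 ± 0.52 in high RFI HF pigs and 0.77 ± 0.27 in high RFI LF pigs (mean ± SD, n = 12). The difference rested on the probes unequally. With the brightest probe of each gene in place of the mean, the line difference of DGAT2 was -0.10 (adjusted P = 0.98).

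The DGAT2 probes are printed here because they gave different answers and because a pair of them overlap. By the start positions in the scanner files, the probe at spot 35046 lies at bases 508 to 567 of its transcript and that at spot 52315 at bases 759 to 818. The probe at spot 24210, which has no start position in the files, ends in the 27 bases with which 52315 begins, which places it at bases 726 to 785. The shared bases are in capitals.
DGAT2 spot 35046: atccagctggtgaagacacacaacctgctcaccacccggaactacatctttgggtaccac
DGAT2 spot 24210: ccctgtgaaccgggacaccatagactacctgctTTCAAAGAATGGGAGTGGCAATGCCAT
DGAT2 spot 52315: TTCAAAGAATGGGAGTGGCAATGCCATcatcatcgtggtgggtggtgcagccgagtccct
The reverse primer of the study's DGAT2 qPCR assay is complementary over all its 20 bases to probe 52315. It is also complementary over 10 bases in a row to probe 24210. The forward primer shares no more than 5 bases in a row with any of the 3 probes. Its place in the transcript was not determined, so the stretch that the assay reads is not given here.
DGAT2 reverse primer: CACGATGATGATGGCATTGC
The capitals mark the bases complementary to probe 52315. Chromosome positions and exons are not given in the sources used here.

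The probe at spot 24210 gave the largest line difference. In low RFI HF pigs its level ran from -1.11 to 1.84 with a median of 0.09, and in low RFI LF pigs from -0.97 to 0.80 with a median of 0.17. High RFI HF pigs ranged from 0.35 to 3.60 with a median of 1.31, and high RFI LF pigs from -0.77 to 1.87 with a median of 1.01. The ranges of the groups overlapped, but 22 of 24 low RFI pigs lay under the median of the high RFI pigs. Within the LF diet, 12 of 12 low RFI pigs lay below the median of high RFI LF pigs, and within the HF diet 10 of 12 did. Expression was 1.93-fold lower in low RFI pigs (log2 difference -0.95 ± 0.22 SE, P = 8.0e-05, limma adjusted P = 0.0071). This was the only one of the 33 probes past an adjusted P-value of 0.05, a threshold passed by 2.77% of the 37113 probes. Low RFI pigs had lower mean levels on 5 of the 6 slides, with differences from -1.69 to 0.06, and on each of the 3 scan days (-0.80, -0.80 and -1.69).

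The overlapping probe at spot 52315 moved the same way by less. Its level ran from -0.41 to 1.04 in low RFI HF pigs and from -0.50 to 0.86 in low RFI LF pigs, with medians of 0.18 and 0.12. In high RFI HF pigs it ran from 0.12 to 2.21 (median 0.48) and in high RFI LF pigs from -0.01 to 0.72 (median 0.35). In all, 18 of 24 pigs of the low RFI line had a level below the median of the high RFI line. The log2 difference was -0.33 ± 0.12 (FC of 1.25, P = 0.0076, limma adjusted P = 0.15), so that the probe met the criterion of the study's methods (P < 0.01 and FC > 1.1) without passing correction. Means were lower in low RFI pigs on 4 of 6 slides.

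At the third probe, spot 35046, the lines had nearly the same range. Levels ran from -0.14 to 2.21 in low RFI HF pigs (median 1.14), from 0.00 to 2.34 in low RFI LF pigs (median 1.01), from 0.83 to 2.22 in high RFI HF pigs (median 1.59) and from -0.22 to 2.06 in high RFI LF pigs (median 1.13). Of the 24 low RFI pigs, 13 fell below the median of the high RFI line. The line difference was -0.10 ± 0.19 (P = 0.59, limma adjusted P = 0.96), with a 95% interval of -0.47 to 0.27 that does not reach the estimate of 24210.

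Another spot, 4041, lies outside the choice by name because its gene name is the cluster number TC609772, but the array annotation describes it as similar to mouse diacylglycerol O-acyltransferase 2. Its value ran from 1.18 to 4.23 in low RFI HF pigs (median 2.52), from 1.48 to 3.01 in low RFI LF pigs (median 2.51), from 2.52 to 5.69 in high RFI HF pigs (median 3.77) and from 1.75 to 4.43 in high RFI LF pigs (median 3.48). Again 22 of 24 low RFI pigs fell below the high RFI median. The fold was 2.03 in favor of high RFI pigs (log2 difference -1.02 ± 0.21, limma adjusted P = 0.0019), and the mean was lower in low RFI pigs on all 6 slides (-1.89 to -0.17). Whether this spot and 24210 read the same transcript was not tested, since they share no stretch of 12 bases or more.

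**Figure D1:**
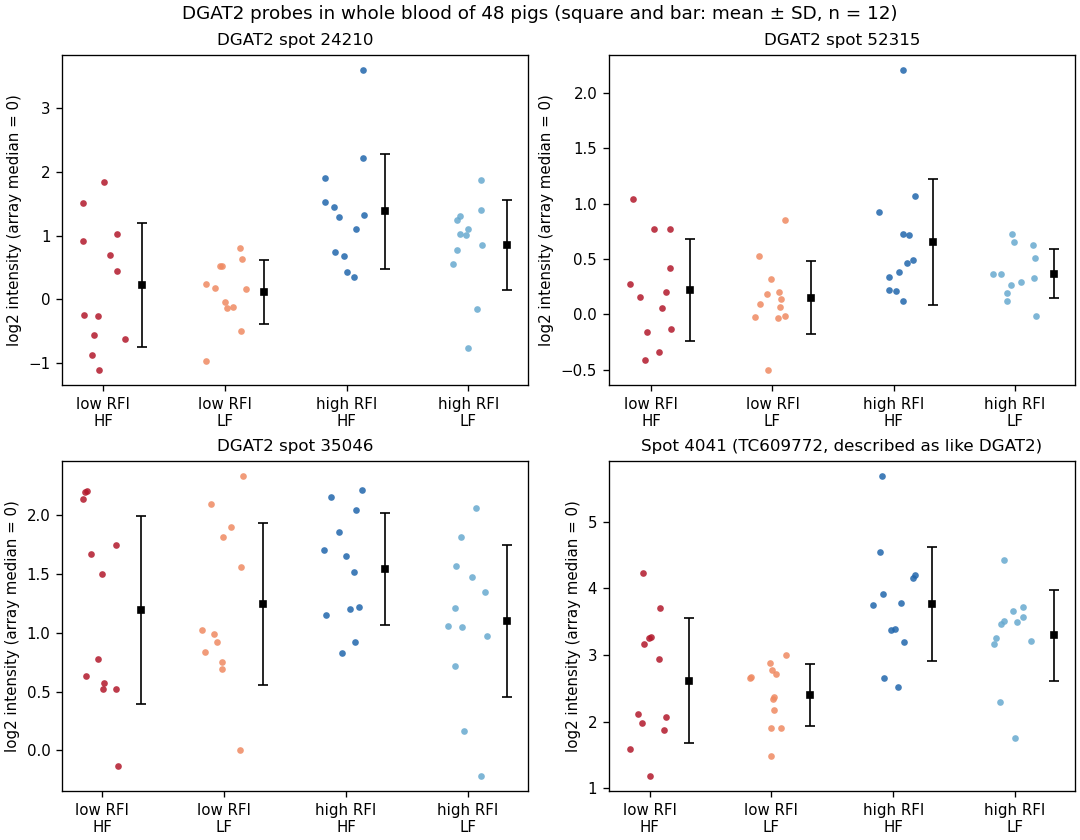
Level of the 3 DGAT2 probes and of spot 4041 in each pig (log2 intensity, array median at 0), by line and diet, with the mean ± SD of 12 pigs as a square and bar. Low RFI pigs lie lower at spots 24210 and 4041, where 22 of 24 lie below the high RFI median, and are mixed with high RFI pigs at spot 35046.

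The interaction of line and diet did not reach the threshold for DGAT2. At spot 24210 the difference was -1.16 ± 0.31 under the HF diet (limma adjusted P = 0.059) and -0.75 ± 0.31 under the LF diet (adjusted P = 0.49), with an interaction of -0.41 ± 0.44 (P = 0.36). The gene value gave -0.65 ± 0.16 under HF (adjusted P = 0.041) and -0.27 ± 0.16 under LF (adjusted P = 0.80), with an interaction of -0.37 ± 0.23 (P = 0.11). Between diets over both lines, all 3 probes had higher means in HF pigs (0.18 to 0.32 on the log2 scale) and none passed correction (lowest P = 0.14). For the gene value the diet difference was 0.23 ± 0.11 (P = 0.048, limma adjusted P = 0.9999).

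After the mean of each group was removed, the DGAT2 probes did not follow each other evenly over the 48 pigs. In this and in the other genes 76 pairs were compared, 73 of probes with the same gene name and 3 of a DGAT2 probe with spot 4041, with permutation P-values from 100000 permutations within groups and Benjamini-Hochberg adjustment over the 76. Spots 24210 and 52315 correlated with r = 0.69 (rho = 0.64, permutation P = 1.0e-05, the smallest that 100000 permutations can give, adjusted P = 1.7e-05), and with r = 0.61 without the 2 pigs farthest from the median. Among the pairs that include a DGAT2 probe, spots 24210 and 4041 followed each other most closely (r = 0.97, rho = 0.96, permutation P = 1.0e-05, r = 0.97 without 2 pigs). Spot 35046 had r = -0.29 with 24210 (rho = -0.36, permutation P = 0.053, adjusted P = 0.061, r = -0.31 without 2 pigs) and r = 0.18 with 52315 (rho = 0.14, permutation P = 0.22, adjusted P = 0.24, r = 0.07 without 2 pigs).

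**Figure D2:**
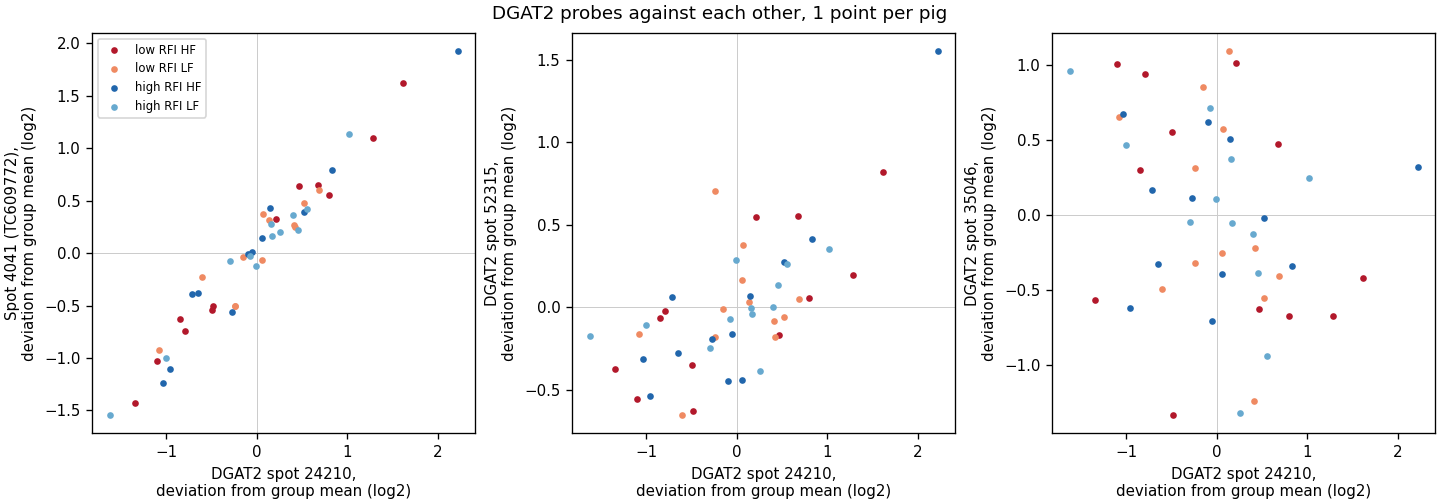
Deviation of each pig from its group mean at DGAT2 spot 24210 (x axis, log2) against spot 4041, spot 52315 and spot 35046 (y axes, log2), with 1 point per pig and 48 pigs in 4 groups. Points follow a line for spot 4041 (r = 0.97), scatter around one for 52315 (r = 0.69) and show no rising relation for 35046 (r = -0.29).

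Blood cell markers moved with both DGAT2 patterns. Lists of markers were summarized as the mean log2 level of the measured genes in each pig, and 33 probes and 2 further spots were each correlated with 7 lists, 245 relations in all. Spot 24210 correlated with the neutrophil list (7 of 9 genes measured) with r = 0.66 (rho = 0.65, permutation P = 1.0e-05, adjusted P = 0.00016, r = 0.65 without the 2 pigs farthest from the median) and with the monocyte list (6 of 8 measured) with r = 0.58 (rho = 0.56, permutation P = 3.0e-05, adjusted P = 0.00041, r = 0.52 without 2 pigs). Spot 35046 correlated instead with the erythroid list (10 of 12 measured), with r = 0.87 (rho = 0.84, permutation P = 1.0e-05, adjusted P = 0.00016, r = 0.84 without 2 pigs), against r = -0.35 for 24210 (rho = -0.36, permutation P = 0.017, adjusted P = 0.049, r = -0.34 without 2 pigs). It ran opposite to the T cell list (6 of 8 measured), with r = -0.64 (rho = -0.63, permutation P = 1.0e-05, adjusted P = 0.00016, r = -0.58 without 2 pigs), and to the NK cell list (5 of 8 measured), with r = -0.50 (rho = -0.47, permutation P = 0.00041, adjusted P = 0.0030, r = -0.47 without 2 pigs).

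A pattern that spans the arrays ran beside the erythroid relations. The first principal component of the deviations from group means held 40.8% of their variance and had an absolute r over 0.5 with 53.5% of all probes and with 23 of the 33 probes of these genes. It correlated with the erythroid list (r = 0.86, rho = 0.83, permutation P = 1.0e-05, adjusted over 2 relations 1.0e-05, r = 0.83 without 2 pigs) and inversely with the median intensity of the array (r = -0.63, rho = -0.64, permutation P = 1.0e-05, adjusted over 2 relations 1.0e-05, r = -0.67 without 2 pigs). Its r was 0.89 with DGAT2 spot 35046, 0.92 with LIPE spot 50654 and 0.88 with SREBF1 spot 37775, against -0.47 with DGAT2 spot 24210 and 0.06 with 52315. The part of array intensity in the erythroid relations was not tested.

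The same lists were compared between lines. Over all gene values, 58.3% were higher in low RFI pigs, 2.73% were called and 11.5% had an unadjusted P-value under 0.05. The neutrophil list ran from 1.88 to 4.50 in low RFI HF pigs, 2.59 to 4.61 in low RFI LF pigs, 2.74 to 4.97 in high RFI HF pigs and 2.43 to 3.93 in high RFI LF pigs, a mean difference of -0.25 in low RFI pigs. Under the HF diet the means were 3.23 ± 0.72 in low and 3.76 ± 0.66 in high RFI pigs, and under the LF diet they were 3.21 ± 0.57 and 3.18 ± 0.41. Spot 24210 differed by -1.16 under HF and by -0.75 under LF (limma adjusted P = 0.059 and 0.49). Of the 7 neutrophil genes, 5 were lower in low RFI pigs and 1, the chemokine receptor CXCR2, passed correction (-0.42 ± 0.12, limma adjusted P = 0.044). Of the 6 monocyte genes, 4 were lower and CD14, the lipopolysaccharide co-receptor, passed (-0.47 ± 0.13, adjusted P = 0.042), with a list difference of -0.11 and ranges of 0.37 to 1.39, 0.65 to 1.46, 0.67 to 1.63 and 0.68 to 1.54 in the same order of groups. The monocyte means were 0.89 and 1.11 in low and high RFI pigs under HF, and differed by little under LF (1.01 ± 0.24 and 1.0 ± 0.28). All 10 erythroid genes had higher means in low RFI pigs and 1, the anion exchanger SLC4A1, passed (0.26 ± 0.07, adjusted P = 0.047), with a list difference of 0.14 and ranges of 1.94 to 3.31, 1.92 to 3.17, 2.12 to 3.12 and 1.58 to 2.72. The B cell list had the most calls between lines. All 5 of its measured genes (of 7) were lower in low RFI pigs and 3 passed correction, among them MS4A1 (-0.36 ± 0.07, adjusted P = 0.0013) and the adaptor BLNK (-0.23 ± 0.06, adjusted P = 0.025). The list difference was -0.24, and spot 24210 had r = 0.16 with this list (rho = 0.09, permutation P = 0.31, adjusted P = 0.45, r = 0.13 without 2 pigs). The 6 measured T cell genes were all higher in low RFI pigs, by 0.06 to 0.17, and 0 passed correction by limma, although 2 reached P < 0.05 before correction. The platelet and NK cell lists (4 and 5 genes measured) had 0 calls by limma, with 0 and 2 genes at an unadjusted P-value under 0.05. In the cell counts of the paper, neutrophils, lymphocytes and monocytes did not differ significantly between lines, while red blood cells were more numerous in low RFI pigs. The part of these cells in the DGAT2 difference was not tested.

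**Figure D3:**
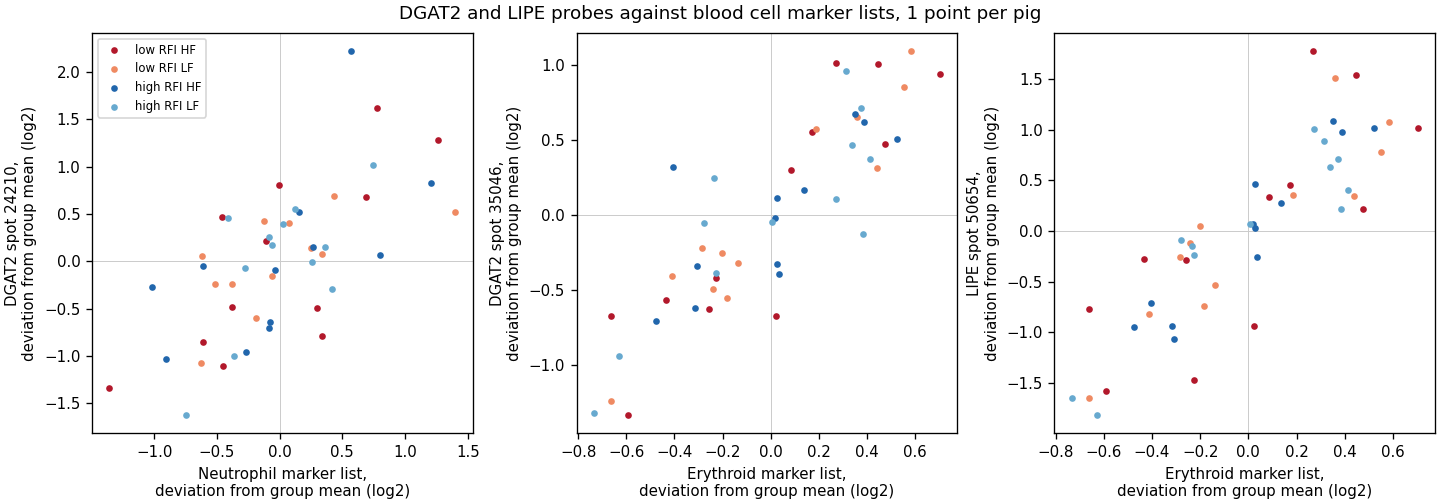
Deviation of each pig from its group mean in a marker list (x axes, mean log2 level) against DGAT2 spot 24210, DGAT2 spot 35046 and LIPE spot 50654 (y axes, log2), with 1 point per pig and 48 pigs in 4 groups. DGAT2 spot 24210 rises with the neutrophil list (r = 0.66), while DGAT2 spot 35046 (r = 0.87) and LIPE spot 50654 (r = 0.86) rise with the erythroid list.

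The 5 gene values described next, all outside the 10 genes, were most like the DGAT2 gene value over the 48 pigs after removal of group means, out of 26916 compared. They were USP11 (r = 0.76), LAPTM4A (r = 0.73), TC609772, which is spot 4041 (r = 0.73), the complement receptor C5AR1 (r = 0.73) and the glucose transporter SLC2A3 (r = 0.72). Their Spearman coefficients were 0.64 to 0.68, and r was 0.61 to 0.68 without the 2 pigs farthest from the median. Apart from TC609772, none differed between lines after correction (log2 differences of -0.25 to -0.06, limma adjusted P = 0.15 to 0.90). For spot 24210 alone, the 5 most similar of 37080 other probes were named after their values were seen. They were spot 4041 (r = 0.97), 2 probes of LOC100156489 (r = 0.86 and 0.85), AK236976 (r = 0.84) and TC527752 (r = 0.83), and 4 of the 5 were lower in low RFI pigs after correction. The log2 differences were -1.03 ± 0.20 and -1.04 ± 0.20 for LOC100156489 (limma adjusted P = 0.00077 and 0.00068), -0.83 ± 0.17 for AK236976 (adjusted P = 0.0021) and -0.27 ± 0.09 for TC527752 (adjusted P = 0.084).

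For DGAT1, the other enzyme of this last step, a single spot outside the choice by name could be given. Spot 61832 is named DGAT, and its transcript is listed under DGAT1 in RefSeq. Its values lay between -1.56 and -0.95 in all pigs, and group means were -1.23 ± 0.14 in low RFI HF, -1.17 ± 0.15 in low RFI LF, -1.18 ± 0.17 in high RFI HF and -1.32 ± 0.17 in high RFI LF pigs. The line difference was 0.05 ± 0.05 (P = 0.26, limma adjusted P = 0.82) and the interaction -0.19 ± 0.10 (P = 0.051, adjusted P = 0.90). No difference of DGAT1 past the threshold was found, with a 95% interval of -0.04 to 0.15 for the line difference.

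The lipases were read by 7 probes. All 4 probes of LIPE, the hormone-sensitive lipase, had higher means in low RFI pigs, with log2 differences of 0.11 to 0.29, and none passed correction (lowest adjusted P = 0.11). At spot 45896 the level ran from 2.25 to 3.08 in low RFI HF pigs (median 2.61), from 2.22 to 3.13 in low RFI LF pigs (median 2.48), from 1.70 to 2.72 in high RFI HF pigs (median 2.04) and from 1.47 to 3.10 in high RFI LF pigs (median 2.42). Within the HF diet, 12 of 12 low RFI pigs were above the high RFI median, and within the LF diet 9 of 12 were. The difference was 0.29 ± 0.10 (FC of 1.22, P = 0.0050, limma adjusted P = 0.11), and the mean was higher in low RFI pigs on all 6 slides (0.09 to 0.62). With slide as a block the adjusted P of this probe was 0.049.

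Spot 17215 shares 58 bases with spot 45896 and is not independent of it. Its line difference was 0.25 ± 0.09 (FC of 1.19, P = 0.0088, limma adjusted P = 0.16), with 21 of 24 low RFI pigs above the high RFI median. By group its medians were 2.47 in low RFI HF, 2.32 in low RFI LF, 2.09 in high RFI HF and 2.34 in high RFI LF pigs, so that the medians of the LF groups hardly differed. Spot 27756 had a difference of 0.17 ± 0.08 (P = 0.036, adjusted P = 0.35). Spot 50654 had one of 0.11 ± 0.26 (P = 0.68, adjusted P = 0.97), with levels from 2.08 to 5.90 over the 48 pigs and 12 of 24 low RFI pigs on either side of the high RFI median. The mean of the 4 LIPE probes was higher by 0.20 ± 0.07 in low RFI pigs (P = 0.0090, limma adjusted P = 0.16).

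As in DGAT2, LIPE probes fell into sets that did not vary together. Spots 17215 and 45896 correlated with r = 0.85 (rho = 0.81, permutation P = 1.0e-05, adjusted P = 1.7e-05, r = 0.80 without 2 pigs) and spots 27756 and 50654 with r = 0.62 (rho = 0.59, permutation P = 2.0e-05, adjusted P = 3.2e-05, r = 0.56 without 2 pigs). Between the sets, 45896 and 50654 had r = -0.53 (rho = -0.53, permutation P = 0.00014, adjusted P = 0.00022, r = -0.53 without 2 pigs). Spot 50654 correlated with the erythroid list with r = 0.86 (rho = 0.87, permutation P = 1.0e-05, adjusted P = 0.00016, r = 0.84 without 2 pigs) and spot 45896 with r = -0.39 (rho = -0.35, permutation P = 0.0078, adjusted P = 0.029, r = -0.39 without 2 pigs). Spot 45896 also rose with the neutrophil list (r = 0.41, rho = 0.35, permutation P = 0.0024, adjusted P = 0.013, r = 0.36 without 2 pigs) and with the B cell list (r = 0.33, rho = 0.39, permutation P = 0.011, adjusted P = 0.036, r = 0.30 without 2 pigs). With the T cell list it had r = 0.36 (rho = 0.36, permutation P = 0.025, adjusted P = 0.067, r = 0.32 without 2 pigs). Low minus high RFI, the lists differed by -0.25 (neutrophil), -0.24 (B cell) and 0.13 (T cell). The part of these cells in the LIPE line difference was not tested.

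**Figure D4:**
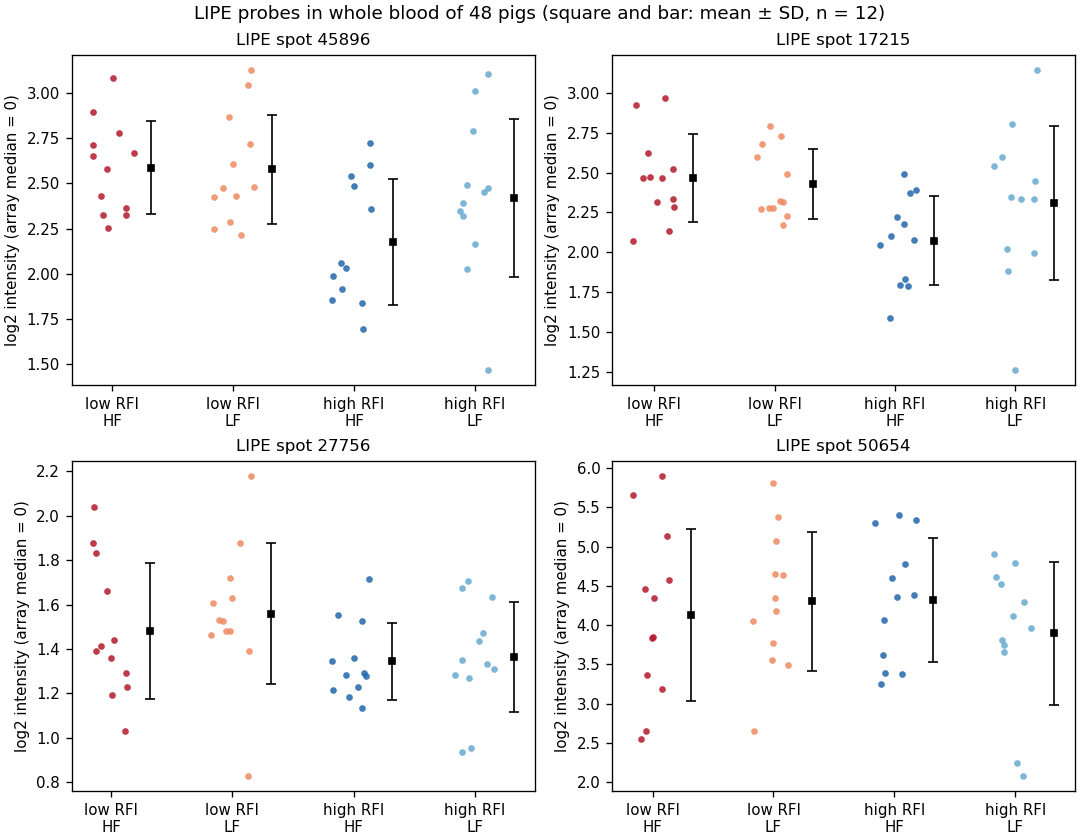
Level of the 4 LIPE probes in each pig (log2 intensity, array median at 0), by line and diet, with the mean ± SD of 12 pigs as a square and bar. At spots 45896 and 17215 the high RFI HF pigs have the lowest median (2.04 and 2.09), and at spot 50654 the 48 pigs spread from 2.08 to 5.90 with overlapping groups.

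PNPLA2, the adipose triglyceride lipase, showed no line difference past the threshold at any of its 3 probes. Spot 7415, well above background on all arrays, had means of 3.82 ± 0.40 in low RFI HF, 3.83 ± 0.33 in low RFI LF, 4.03 ± 0.17 in high RFI HF and 3.88 ± 0.29 in high RFI LF pigs. Its difference was -0.13 ± 0.09 (P = 0.15, limma adjusted P = 0.69) and those of spots 3079 and 15288 were -0.01 and -0.03. The 95% intervals of the 3 probes together ran from -0.31 to 0.21. Levels of the probes rose and fell together in the same pigs (r = 0.42 to 0.83 for the 3 pairs).

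Fatty acid synthesis was read by FASN and ACACA. Each of the 4 FASN probes differed between lines by 0.06 or less on the log2 scale, with intervals that together ran from -0.17 to 0.22 (lowest P = 0.43). The mean level of spot 9921 was 4.25 ± 0.22 in low RFI HF, 4.27 ± 0.23 in low RFI LF, 4.23 ± 0.35 in high RFI HF and 4.32 ± 0.22 in high RFI LF pigs. The 2 ACACA probes differed by -0.05 ± 0.07 (spot 3839) and 0.01 ± 0.06 (spot 54086), with intervals from -0.19 to 0.14. Spot 54086 lay at 2.11 times the local background and was called well above it on 46 arrays. At spot 3839 the difference between diets within high RFI pigs was -0.22 ± 0.10 (P = 0.028, limma adjusted P = 0.85) and the interaction 0.26 ± 0.14 (P = 0.065, adjusted P = 0.90), the lowest interaction P among the 33 probes.

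FASN also holds a check of the array itself. Spots 43508 and 43680 carry the same 60 bases, and their values correlated with r = 0.97 over the 48 pigs (rho = 0.96, permutation P = 1.0e-05). Spot 23701 lay low (-2.74 to -1.42, at 2.26 times the local background) and had r = -0.40 to -0.32 with the other 3 FASN probes, which had r = 0.60 to 0.97 among themselves.

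SCD had 10 retained probes. Means of 9 of them were lower in low RFI pigs, with log2 differences of -0.19 to -0.09 (P = 0.094 to 0.40, limma adjusted P = 0.57 to 0.90), and the same 9 were lower in HF than in LF pigs. These 9 probes are not independent readings of the pigs, since their 36 pairs correlated with r = 0.82 to 0.98, and spots 11824, 12807 and 25464 overlap by 27 to 45 bases. At spot 12807 the means were 0.39 ± 0.44 in low RFI HF, 0.60 ± 0.33 in low RFI LF, 0.52 ± 0.62 in high RFI HF and 0.80 ± 0.31 in high RFI LF pigs. Its diet difference of -0.25 ± 0.12 was the largest of the 10 (P = 0.053, adjusted P = 0.9999). The gene value of SCD differed by -0.11 ± 0.09 between lines (P = 0.24, adjusted P = 0.83) and by -0.15 ± 0.09 between diets (P = 0.12, adjusted P = 0.9999).

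The remaining SCD probe, at spot 54240, behaved apart from the others. It starts at base 395 of its transcript and the 7 others with a start position at base 4494 or later. Its level was -2.65 in the median pig and 1.79 in low RFI HF replicate 4, while the next highest pig had -1.70. It was called well above background on 45 arrays. Its line difference was 0.19 ± 0.19 with that pig and 0.01 ± 0.07 without it. With the 9 other probes it had r = -0.41 to -0.23, and -0.34 to -0.13 without that pig.

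CD36 probes lay low on the arrays. Spots 9150, 22662 and 25156 had median intensities 1.95 to 2.12 times the local background, and 2 of the 4 probes were called well above background on all 48 arrays. Line differences were -0.09 to 0.05 (P = 0.44 to 0.97), with 95% intervals from -0.32 to 0.27. The probes paired off, with r = 0.84 for spots 9150 and 16149 (rho = 0.86, permutation P = 1.0e-05) and r = 0.70 for spots 22662 and 25156 (rho = 0.73, permutation P = 1.0e-05), against 0.16 to 0.44 across these pairs.

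SREBF1 probes had line differences of 0.03, 0.13 and 0.07 at spots 6793, 32814 and 37775 (P = 0.23 to 0.71, limma adjusted P = 0.79 to 0.97). Spot 6793 gave the lowest diet P-value of the 33 probes. Its means were -1.05 ± 0.28 in low RFI HF, -1.02 ± 0.17 in low RFI LF, -1.20 ± 0.27 in high RFI HF and -0.93 ± 0.23 in high RFI LF pigs. HF pigs differed from LF pigs by -0.16 ± 0.07 (P = 0.032, adjusted P = 0.9999), and within high RFI pigs -0.28 ± 0.10 (P = 0.0079, adjusted P = 0.85). Spot 37775 correlated with the erythroid list (r = 0.90, rho = 0.91, permutation P = 1.0e-05, adjusted P = 0.00016, r = 0.89 without 2 pigs) and with spot 6793 with r = -0.40 (rho = -0.38, permutation P = 0.0067, adjusted P = 0.0091, r = -0.36 without 2 pigs).

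Counted over the 33 probes, 1 passed correction between lines, and 4 met P < 0.01 and FC > 1.1, 2 of DGAT2 lower and 2 of LIPE higher in low RFI pigs. Over all 37113 probes, 5.78% met that criterion. The median line difference of the 33 probes was -0.02, and 14 of them had a higher and 19 a lower mean in the low RFI line. For diet, limma called 0 of the 33 probes (0% of all probes), with 1 at an unadjusted P-value under 0.05 (1.64% of all probes), and 0 met the criterion (0.245%). For the interaction it called 0 (0% of all probes), with 0 at an unadjusted P-value under 0.05 (2.28%), and 0 met the criterion (0.264%). The analysis of variance of each probe called 1, 0 and 0 probes after correction for line, diet and interaction.

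**Figure D5:**
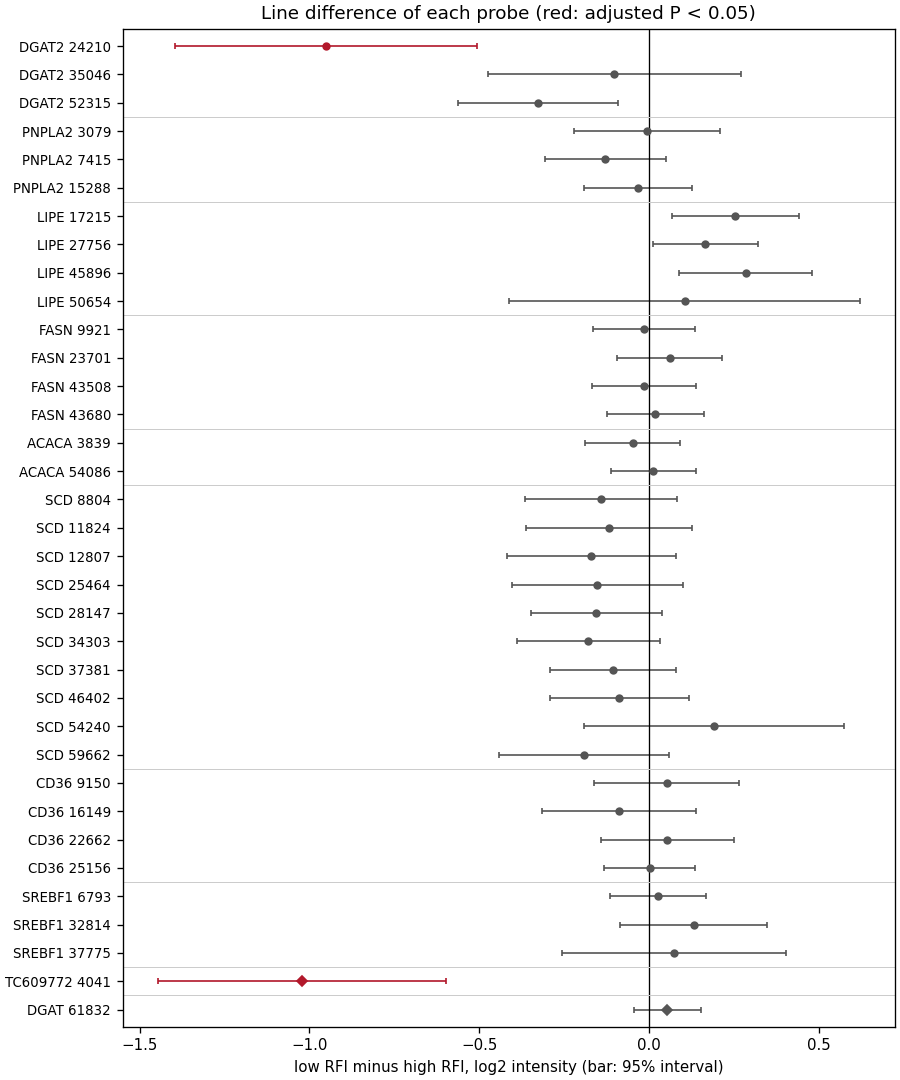
Log2 difference between low and high RFI pigs at each of the 33 probes (circles) and at spots 4041 and 61832 (diamonds), with 95% intervals from the fit over 48 pigs and, in red, those with adjusted P < 0.05. Only DGAT2 24210 (-0.95) and spot 4041 (-1.02) are red, and the intervals of 3 LIPE probes and of DGAT2 52315 leave out 0 without passing correction.

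Other genes of these pathways were read from 5 lists of 104 genes, of which 62 had a gene value. In all, 3 were underexpressed and 0 overexpressed in low RFI pigs after correction, against 2.73% of all gene values called. Among lipid droplet and lipolysis genes (10 of 20 measured), PLIN1, another droplet coat protein, was lower by 0.19 ± 0.05 on the log2 scale (adjusted P = 0.027, limma). Its level averaged -1.92 ± 0.19 in low RFI and -1.73 ± 0.16 in high RFI pigs (n = 24), and 20 of 24 low RFI pigs fell below the high RFI median. Its probes differed by -0.19 at spot 28448, called well above background on 47 arrays, and by -0.20 at spot 49551, so called on all 48. The call was lost under 4 of 12 alternatives, with all non-control probes (adjusted P = 0.84), probes well above background (0.056), the column as deposited (0.82) and the brightest probe (0.061), and the difference ranged from -0.37 to -0.10 over the 12. The list had a median difference of 0.05, compared with 0.02 over all gene values.

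Among genes of fatty acid uptake and activation (12 of 19 measured, median difference -0.02), ACSL4, which attaches coenzyme A to long-chain fatty acids such as arachidonate, was lower by 0.31 ± 0.09 (3.20 ± 0.27 against 3.51 ± 0.36, adjusted P = 0.043, limma). All 8 of its probes were lower in low RFI pigs (-0.42 to -0.16), of which 3 passed correction. The call of the gene value was lost in 27 of 48 fits with 1 pig left out and under 3 of 12 alternatives (adjusted P up to 0.35). Among lipogenic regulators (15 of 20 measured, median difference 0.01), MLX, the partner of the glucose-responsive factor ChREBP, was lower by 0.47 ± 0.11 at its single probe (1.30 ± 0.42 against 1.77 ± 0.35, adjusted P = 0.0091, limma), and 19 of 24 low RFI pigs fell below the high RFI median. With all non-control probes the difference was -0.25 (adjusted P = 0.029).

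Fatty acid synthesis, elongation and desaturation genes (13 of 26 measured, median difference -0.03) had no call after correction. PTPLB, a dehydratase of fatty acid elongation now named HACD2, met the criterion of the methods, lower by 0.15 ± 0.05 (P = 0.0031, adjusted P = 0.085, limma). Its probes disagreed, with -0.30 at spot 13567 (adjusted P = 0.015) and -0.01 at spot 17562. Of the triacylglycerol synthesis genes upstream of DGAT2 (12 of 19 measured, median difference 0.01), 0 met either threshold between lines, and 1 had an unadjusted P-value under 0.05, as did 11.5% of all gene values. ACSL1 and CIDEA met only the criterion of the methods, which 5.56% of all gene values met, and are named after their values were seen. ACSL1 was lower by 0.27 ± 0.10 (P = 0.0091, adjusted P = 0.16, limma), although its 4 probes disagreed, with 0.12 at spot 1826 (P = 0.48) and -0.49 to -0.24 at the others. CIDEA was higher by 0.26 ± 0.09 (P = 0.0074, adjusted P = 0.15, limma) in low RFI pigs, but its probe lay at 1.77 times the local background and 9 of 24 low RFI pigs were under the median of the other line (SD of 0.42 in low and 0.16 in high RFI pigs).

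Between diets 0 of the 62 genes passed correction by limma (0% of all gene values) or met the criterion (0.208%), and 2 had an unadjusted P-value under 0.05 (1.61%). For the interaction 0 passed correction by limma, 3 had an unadjusted P-value under 0.05 (2.25%) and 1 met the criterion (0.223%). This was AGPAT2, which makes phosphatidic acid on the way to triacylglycerol, named after its values were seen. Its level was -0.69 ± 0.36 in low RFI HF, -0.35 ± 0.32 in low RFI LF, -0.32 ± 0.34 in high RFI HF and -0.53 ± 0.31 in high RFI LF pigs (interaction of -0.54 ± 0.19, P = 0.0063, adjusted P = 0.89, limma).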

How the data were processed

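RNA of 48 blood samples was read on 1-color Agilent arrays. Scanner files deposited by the authors hold the intensity and local background of each spot (Feature Extraction 10.7.3.1) and quality calls of other kinds, and a table of log2 values of 37113 spots. On 47 arrays a deposited log2 value is the log2 median pixel intensity of the spot less the median of its array. In high RFI HF replicate 1 the deposited column repeats 1 value, and it was rebuilt from its scanner file. The 10 genes, the pathway and marker lists and the tests were chosen with earlier results of these data known. Gene names are those of the scanner files, and 26 of the 33 probes matched a RefSeq transcript (Sscrofa11.1), all under the same symbol. A model with line, diet and interaction was fitted to all 37113 probes and to 26924 gene values (means of probes with 1 name) with limma 3.58.1 in R 4.3.3, with Benjamini-Hochberg adjustment over each. Named are the 10 genes, up to 4 genes per pathway list by line difference, markers, and the 5 gene values most like DGAT2. The procedure was tested on simulated data. Alternatives were other signals and scalings (array median or 75th percentile of the processed signal, normexp with an offset of 50 and quantile normalization), probe filters, blocks, variance models, the brightest probe, the column as deposited and each pig left out. Other steps used Python 3.11.15.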

Additional observations from a re-analysis of the deposited data

Results flagged for a closer look

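Of the 40 spots that carry the name of one of the 10 genes, 7 are outside the retained spots, and 3 of these were called well above background on all 48 arrays. These were spot 11516 of PLIN2, spot 57956 of CD36 and spot 60655 of SCD. Values of these spots are log2 intensities with the median of the 60306 non-control spots at 0, and adjusted P-values are over that larger table.

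PLIN2, the droplet coat protein that has no retained probe, is therefore measured outside the table. At spot 11516 the level ran from 0.47 to 1.01 in low RFI HF pigs (median 0.76), from 0.55 to 1.29 in low RFI LF pigs (median 0.77), from 0.32 to 1.0 in high RFI HF pigs (median 0.53) and from 0.00 to 1.02 in high RFI LF pigs (median 0.46). The lines overlapped, yet 24 of 24 low RFI pigs were above the median of the high RFI pigs. The line difference was 0.19 ± 0.07 (P = 0.0061, limma adjusted P = 0.23), and the diet difference 0.01 ± 0.07. The other PLIN2 spot, 60181, was called well above background on 1 array.

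Spot 57956 of CD36 had a line difference of -0.06 ± 0.09 (P = 0.51) and spot 60655 of SCD one of -0.13 ± 0.10 (P = 0.18), in both cases without passing correction (limma adjusted P = 0.998).

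Spot 4041, which is retained but is not named DGAT2, had a line difference of -1.02 ± 0.21 on the log2 scale (limma adjusted P = 0.0019), the same direction as the 3 DGAT2 probes.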

How the results depend on the processing

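DGAT2 spot 24210 and spot 4041 kept their direction and an adjusted P-value under 0.05 under all 11 alternatives (log2 differences of -1.05 to -0.91 and -1.04 to -1.0). The DGAT2 gene value did so under 11 of 12 and with each pig left out (-0.49 to -0.40), the exception being the brightest probe (-0.10). The count of probes called by line was 2 instead of 1 with slide as a block or the replicate block, LIPE 45896 being added. With each pig left out the count called by line was 1 and the counts for diet and interaction were 0. Probes past P < 0.01 and FC > 1.1 by line numbered 2 in place of 4 with the column as deposited and 2 to 5 with a pig left out. They were 2 without each of low RFI HF replicates 5, 7, 11 and 12, low RFI LF replicates 5, 11 and 12, high RFI HF replicate 8 and high RFI LF replicate 1. By diet they numbered 0 to 2, with 2 without high RFI HF replicate 5. Of the pathway genes, 1 in place of 3 was called with the column as deposited (PLIN1 and ACSL4 lost), 2 with all non-control probes, with probes well above background and with plain analysis of variance, 4 with normexp and quantile normalization, and 2 to 4 with a pig left out. The ACSL4 call was lost in 27 of 48 cases (lowest and highest adjusted P over other alternatives 0.016 and 0.35), the PLIN1 call under 4 of 12 alternatives (0.0045 and 0.84). Differences near 0 changed sign: FASN was -0.083 with the column as deposited, -0.015 with the brightest probe and -0.0016 (without low RFI HF replicate 11) to 0.033 with a pig left out. CD36 was -0.0060 with all non-control probes, -0.043 with probes well above background, -0.19 with the column as deposited, -0.088 with the brightest probe and -0.018 to 0.031 with a pig left out, below 0 in 16 of 48 cases. LIPE reached an adjusted P of 0.049 without low RFI LF replicate 1. Same-numbered pigs of different groups correlated with r over 0.1 in 44 of 72 pairs (-0.60 to 0.71), and 22 of 48 pigs correlated best with their own number. The median r was 0.20 for pigs of the same number, -0.03 for other numbers and 0.09 for other numbers on the same slide. Replicate numbers follow the slides, with numbers 1 and 2 of every group on slide 1. Because their meaning is not known, the numbers entered only the replicate block alternative and not the main fit. Whether pigs of the same number share a factor other than the slide was not tested. The cause of the changes between settings was not tested. Signal near background limited 3 CD36 probes, ACACA spot 54086, FASN spot 23701, SCD spot 54240 and the CIDEA probe. PLIN1 spot 28448 also lay low, at -2.51 in low and -2.32 in high RFI pigs, as did PTPLB spot 17562 (-2.10 and -2.09).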
